A study of Mus musculus with 31 samples.

Results

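The genes described here encode 9 proteins that carry iron into cells, store it, move it between compartments or export it: Tfrc, Steap3, Slc11a1, Slc11a2, Slc25a37, Fth1, Ftl1, Hmox1 and Slc40a1. They were chosen by name for these roles, out of 45706 genes in the count tables, and all 9 passed the filter on low counts in every comparison. Their counts came from sorted bone marrow cells of 10-week-old wild-type C57BL/6 mice that had received an intraperitoneal dose of either PBS or β-glucan (1 mg), a polysaccharide of fungal cell walls. The sorts took long-term hematopoietic stem cells (HSC) at day 7 (4 PBS and 3 β-glucan libraries) and at day 28 (4 and 4), and multipotent progenitors (MPP) at day 28 (4 and 4). A last set of HSC (4 and 4) came from mice given PBS or β-glucan and, 7 days later, 150 mg/kg of 5-fluorouracil (5-FU), a drug that kills dividing marrow cells, and taken 14 days after that drug. C57BL/6 mice carry a loss-of-function allele of Slc11a1, so its transcript level says nothing of a working transporter in these animals. Since no label states that replicates came from different animals, the p-values below cover the spread between these samples, which may be technical.

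Cells take up most of their iron as transferrin bound to the transferrin receptor, release it in the endosome, reduce it, and pass it through a divalent metal transporter into the cytosol. From there it goes to mitochondria for heme and iron-sulfur clusters, into the ferritin shell for storage, or out of the cell through ferroportin. Red cell precursors use the uptake and mitochondrial arm most heavily, and macrophages that digest old red cells use the heme breakdown and export arm.

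Iron regulatory proteins set much of this by binding a hairpin in the messenger RNA, the iron-responsive element. When iron is low, binding in a 5′ untranslated region blocks translation, and binding in a 3′ untranslated region protects the transcript from decay, so of these elements only the 3′ kind acts through the transcript level counted here. The elements were looked for in GENCODE M21 transcripts (mm10) as an unpaired C, a 5-base stem and a 6-base loop CAGTGN whose last base is not G, closed by the paired stem. They are printed to show which of the 9 genes carry a match to this pattern and on which side of the coding sequence. Each is given 5′ to 3′ on the transcript strand with the loop in capitals:
Tfrc 3′ element 1 (chr16:32631219-32631247, plus strand): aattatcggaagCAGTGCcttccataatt
Tfrc 3′ element 2 (chr16:32631598-32631626, plus strand): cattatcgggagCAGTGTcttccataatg
Tfrc 3′ element 3 (chr16:32631663-32631691, plus strand): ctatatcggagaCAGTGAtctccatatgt
Tfrc 3′ element 4 (chr16:32631710-32631738, plus strand): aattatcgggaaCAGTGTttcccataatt
Fth1 5′ element (chr19:9982732-9982760, plus strand): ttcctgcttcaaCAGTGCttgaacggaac
Ftl1 5′ element (chr7:45459779-45459807, minus strand): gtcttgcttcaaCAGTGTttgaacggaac
Slc40a1 5′ element (chr1:45925465-45925493, minus strand): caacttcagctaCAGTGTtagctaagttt

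Tfrc carried 4 matches in its 3′ untranslated region, and Fth1, Ftl1 and Slc40a1 carried 1 each in the 5′ untranslated region. Slc11a1, Slc11a2, Slc25a37, Hmox1 and Steap3 held no match to these letters. The pattern allows no unpaired base within the stem, so an element with such a base would be missed. The lack of a match therefore does not show that a gene lacks an element. Among 21877 coding genes, 0.105% held a match in a 5′ untranslated region and 0.457% in a 3′ untranslated region.

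The sorted cells did not hold stem cell transcripts alone. The summed level of 12 HSC markers ran from 1687 to 2288 CPM (counts scaled to a common library total) in HSC at day 7 and from 429 to 738 CPM in HSC at day 28, and that of 20 red cell precursor markers, such as globins and Alas2, from 24222 to 82024 CPM at day 7 and from 168005 to 215618 CPM at day 28. Neutrophil, macrophage, monocyte, B cell, T/NK and megakaryocyte markers were also present in every group. In such bulk samples fewer cells of a type and less RNA per cell cannot be told apart. The 31 libraries held 19331663 to 39485556 counts. Among MPP of PBS mice, library 1 carries a conflicting HSC tag; 8 of the 9 iron genes lay nearer to the mean of the other MPP libraries than to the HSC mean.

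**Figure D1:**
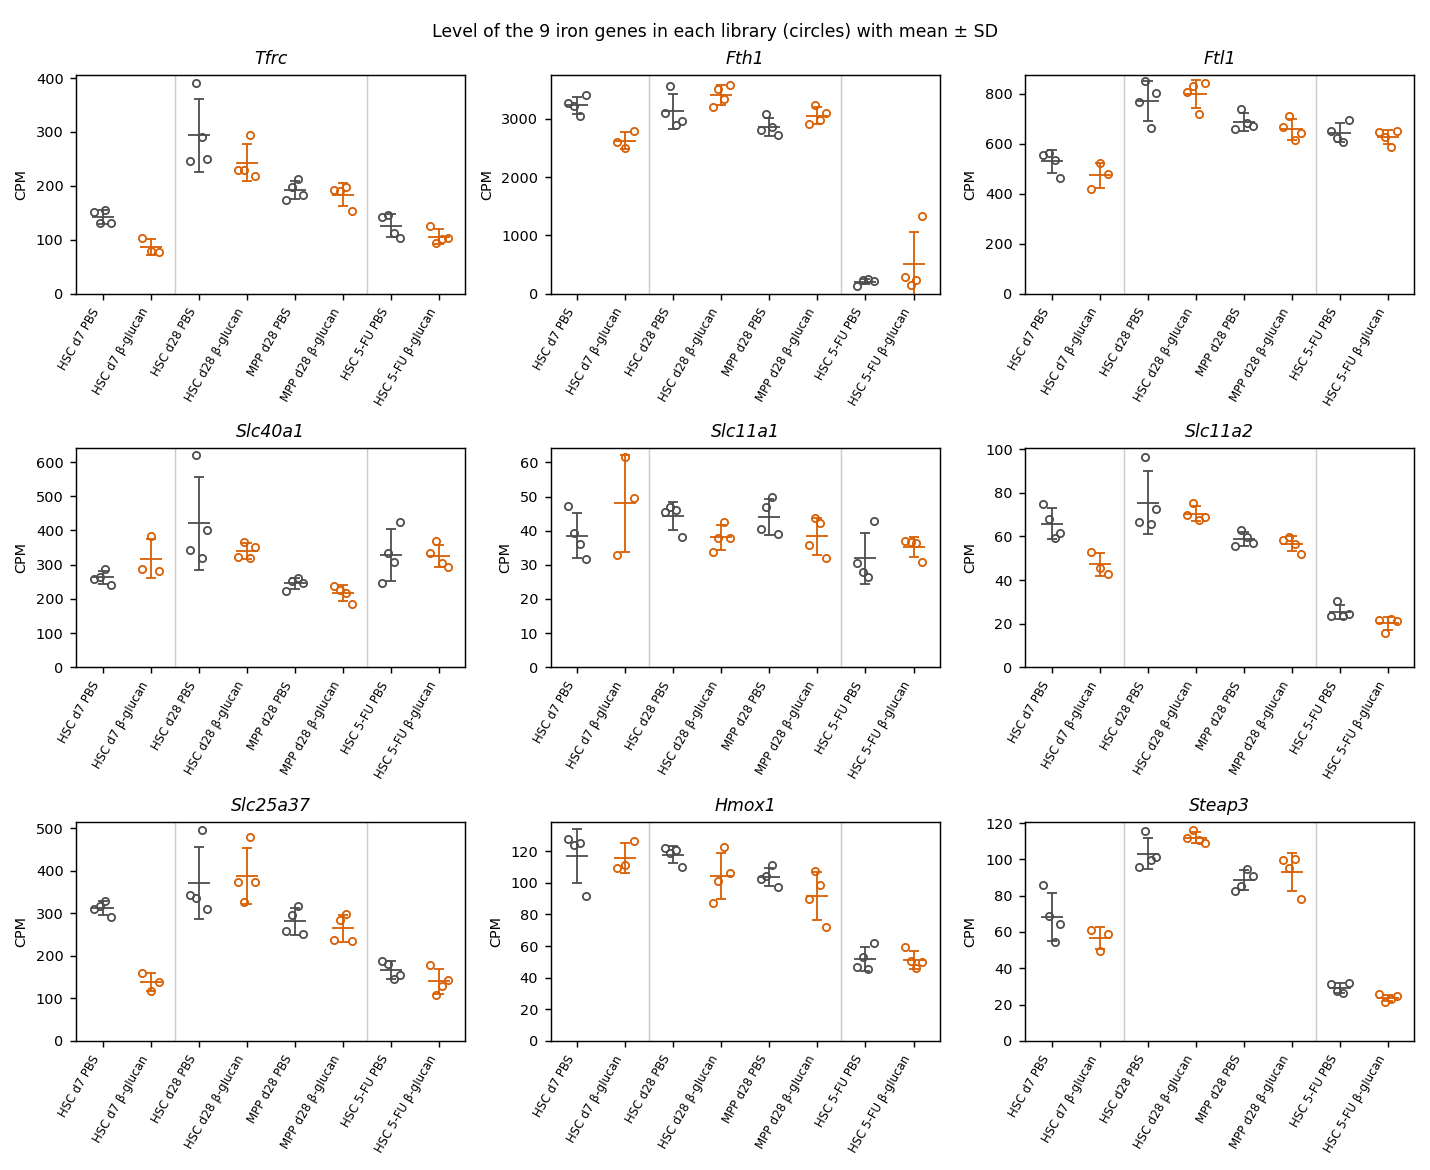
Level of each of the 9 genes in CPM (y axis, from 0) in each library (circles) of the 8 groups (x axis), with the mean and SD of each group; grey is PBS and orange β-glucan, and vertical lines separate the 3 count tables. Slc25a37 and Tfrc of β-glucan mice at day 7 lie below all PBS libraries, and Fth1 after 5-FU lies far below its level in the other tables except in library 4 of the β-glucan group (1336 CPM); the SD bar of that group is clipped at 0.

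Per kilobase of exon, ferritin heavy chain was the most abundant of the 9 genes in PBS mice at day 7. Fth1 stood at 3737 ± 167 CPM per kb (mean ± SD, n = 4) and Ftl1 at 396 ± 33.7 CPM per kb. Hmox1 (54.2 ± 7.96 CPM per kb) and Slc25a37 (51.9 ± 2.62 CPM per kb) followed and differed by less than their spread. Slc40a1 (29.2 ± 2.12 CPM per kb) came next, and Tfrc (22.98 ± 2.09 CPM per kb) lay below it with no overlap of the libraries. Steap3 (11.9 ± 2.27 CPM per kb), Slc11a1 (10.4 ± 1.75 CPM per kb) and Slc11a2 (10.4 ± 1.12 CPM per kb) were lowest and did not differ beyond their spread. The gap between Fth1 and Ftl1 differed between tables. In HSC of PBS mice at day 28 it was 3615 against 576 CPM per kb. After 5-FU, Fth1 lay below Ftl1 in PBS mice (242 against 481 CPM per kb). With near-identical copies summed, Fth1 and Ftl1 stood at 3276 and 607 CPM in PBS mice at day 7. In HSC of PBS mice at day 28 these sums were 3195 and 2998 CPM. The copies of Ftl1 held few counts in the day 7 table. The copy Ftl2-ps had a mean of 0.43 CPM in PBS mice there, against 1697 CPM in HSC of PBS mice at day 28. The size of the gap is therefore not to be relied on in any of the tables, day 7 included.

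At day 7, the mitochondrial iron carrier, the transferrin receptor, the endosomal iron transporter and the ferritin heavy chain were lower in HSC of β-glucan mice than in HSC of PBS mice, while the other 5 genes did not pass the test. In the quasi-likelihood test of edgeR, adjusted over 16403 genes (Benjamini-Hochberg) and read at a threshold of 0.05, 4 of the 9 genes fell (Slc25a37, Tfrc, Slc11a2 and Fth1) and 0 rose. Of all genes tested, 6.72% were called in either direction, 3.88% lower and 2.83% higher. The groups of these 4 genes did not overlap, as for 10.3% of all genes in that direction. The median log2 fold change was -0.27 over the 9 genes and -0.0056 over all genes tested.

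Slc25a37 (ENSMUSG00000034248, chromosome 14, 69241848 to 69285112), which encodes mitoferrin-1, the carrier that brings iron into mitochondria of red cell precursors, fell most. Its level was 309, 318, 329.7 and 292 CPM in the PBS libraries and 159, 117 and 138 CPM in the β-glucan libraries. Every β-glucan library lay below every PBS library, and library 2 was the lowest. The log2 fold change was -1.18 ± 0.10 (SE; adjusted p = 0.000114), a 2.27-fold lower level.

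Tfrc (ENSMUSG00000022797, chromosome 16, 32608920 to 32632794), the transferrin receptor, stood at 151, 131, 155 and 131 CPM in PBS mice and at 104, 79.3 and 78.0 CPM in β-glucan mice. The groups did not overlap, and β-glucan library 1 was the nearest to the PBS range. The log2 fold change was -0.71 ± 0.11 (adjusted p = 0.0039). Its 4 hairpins are those of the 3′ kind printed above; whether they take part was not tested.

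Slc11a2 (ENSMUSG00000023030), the divalent metal transporter that releases iron from the endosome, stood at 75.1, 67.8, 59.3 and 61.5 CPM in PBS mice and at 53.0, 45.6 and 42.8 CPM in β-glucan mice. The ranges were separate but close to each other. The log2 fold change was -0.48 ± 0.11 (adjusted p = 0.022), and this call was lost (adjusted p up to 0.109) when β-glucan library 2 or 3 or PBS library 1 or 2 was left out. Steap3, the endosomal reductase that prepares iron for that transporter, ranged from 49.6 to 61.2 CPM against 54.6 to 85.7 CPM (-0.27 ± 0.14, adjusted p = 0.304). Slc11a1, the related transporter of phagosomes, ranged from 33.0 to 61.5 CPM against 31.8 to 47.1 CPM (0.31 ± 0.19, adjusted p = 0.40).

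Fth1, the ferritin heavy chain that oxidises iron for storage, stood at 3267, 3217, 3055 and 3406 CPM in PBS mice and at 2603, 2498 and 2785 CPM in β-glucan mice. Again no β-glucan library reached a PBS library. The change was small, -0.30 ± 0.08 (adjusted p = 0.038), and it did not pass the test in 9 of 11 alternatives, which include the loss of any 1 of the 7 libraries (adjusted p = 0.0507 to 0.109). Ftl1, the light chain, had overlapping groups (421 to 522 CPM against 465 to 563 CPM) and a log2 fold change of -0.16 ± 0.10 (adjusted p = 0.396).

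Slc40a1, which encodes ferroportin, the only known iron exporter of mammalian cells, stood at 259, 262, 287 and 241 CPM in PBS mice and at 288, 383 and 281 CPM in β-glucan mice. The groups overlapped, with β-glucan library 2 highest, and the log2 fold change of 0.27 ± 0.11 did not pass the test (adjusted p = 0.188). Hmox1, heme oxygenase 1, which frees iron from heme, had nearly the same mean in both groups (117 ± 17.2 CPM in PBS, 116 ± 9.40 CPM in β-glucan mice; -0.02 ± 0.12, adjusted p = 0.96).

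Markers of 2 other cell types fell in the same comparison. Of 9 B cell markers 8 fell (median log2 fold change -1.505; summed level 2032 to 2204 CPM in PBS and 1092 to 1633 CPM in β-glucan mice). Of 20 red cell precursor markers 18 fell (median -1.27), and their summed level was 66166 to 82024 CPM in PBS and 24222 to 30818 CPM in β-glucan mice. Macrophage markers had 0 of 14 called by edgeR, 1 at an unadjusted p under 0.05 and 0 by DESeq2 (summed level 305 to 383 CPM and 375 to 406 CPM), while 9 of 14 neutrophil markers (55659 to 64197 CPM and 78932 to 125892 CPM) and 5 of 9 monocyte markers (1487 to 1651 CPM and 2106 to 3208 CPM) rose. The part of these cells' transcripts in the fall of Slc25a37, Tfrc and Slc11a2 was not tested.

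**Figure D2:**
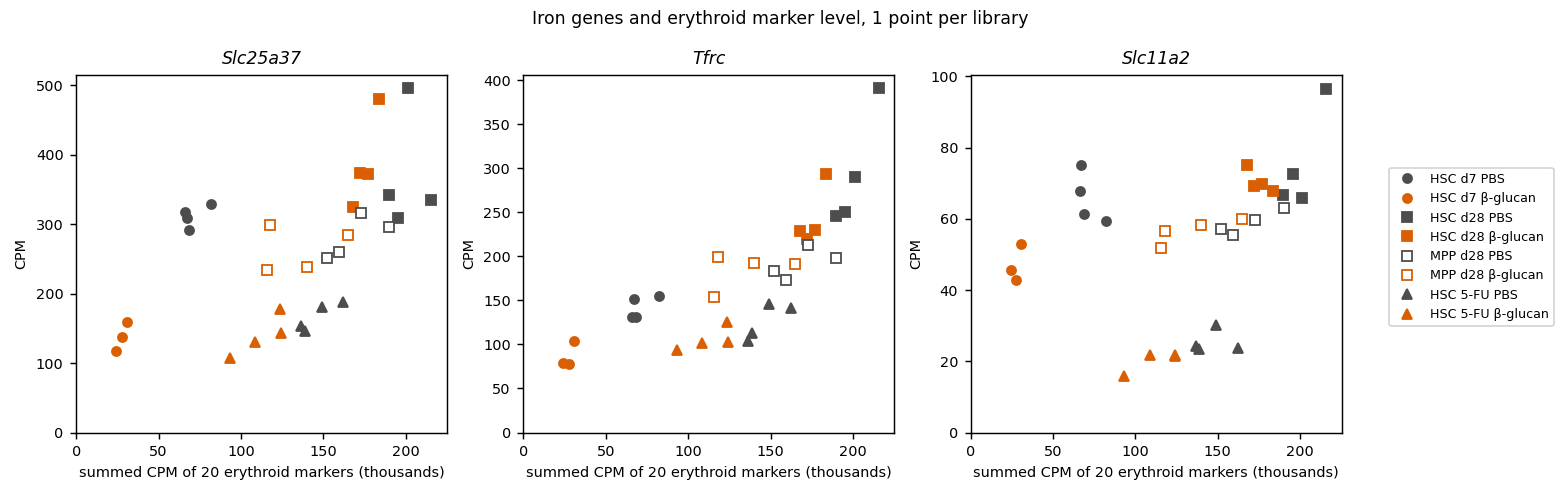
CPM of Slc25a37, Tfrc and Slc11a2 (y axes) against the summed CPM of the 20 red cell precursor markers (x axes, in kCPM), 1 point per library, with colour for treatment, circles for day 7, squares for day 28 (open for MPP) and triangles for the 5-FU set. In all 3 panels the β-glucan libraries of day 7 have the lowest marker sums (24222 to 30818 CPM). Marker sums of different tables overlap only between MPP of day 28 (115611 to 189982 CPM) and HSC after 5-FU (93191 to 162200 CPM). Levels of the 3 genes lie apart between these sets, which differ in table, cell type and 5-FU.

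Most other iron genes at day 7 did not pass the test. The counts below are to be read against the 6.72% of all genes called there, 3.88% lower and 2.83% higher. Of 14 tested genes of iron transport outside the 9, 3 rose and 0 fell: Steap4, a metalloreductase (1.52 ± 0.25, adjusted p = 0.00396), Lcn2, which binds bacterial iron carriers (0.81 ± 0.13, adjusted p = 0.00342), and Ltf, lactoferrin (0.73 ± 0.13, adjusted p = 0.00645). Lcn2 and Ltf are also members of the neutrophil list. Of 15 genes of iron-sulfur cluster assembly and mitochondrial iron, 4 fell and 0 rose: Isca1, an assembly protein (-0.80 ± 0.08), Bola3 (-0.75 ± 0.17), Abcb10, a mitochondrial transporter that stabilises mitoferrin-1 (-0.74 ± 0.13), and Glrx5, a glutaredoxin of cluster assembly (-0.59 ± 0.13). Of 11 heme handling genes, Hp, haptoglobin, rose (0.83 ± 0.13) and Blvrb, a biliverdin reductase, fell (-0.84 ± 0.12). Among 10 targets of the antioxidant factor NRF2, G6pdx rose (0.60 ± 0.11) and Gclm (-0.72 ± 0.16) and Nqo1 (-0.47 ± 0.11) fell. Of the 10 regulators, such as the iron regulatory proteins Aco1 and Ireb2, 0 were called by edgeR, 3 had an unadjusted p under 0.05 and 0 were called by DESeq2.

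At day 28, 0 of the 9 genes were called in HSC and 0 of 9 in MPP by edgeR, with 1 of 9 at an unadjusted p under 0.05 in each (Slc11a1 in HSC, Slc40a1 in MPP) and 0 of 9 by DESeq2 in both. Of all genes, 0.0374% were called in HSC and 4.63% in MPP, and 17% and 19.3% had an unadjusted p under 0.05. In HSC, Slc25a37 stood at 342, 335, 496 and 309.7 CPM in PBS mice and at 373, 325, 481 and 374 CPM in β-glucan mice. The groups overlapped fully, library 3 was highest in both, and the log2 fold change was 0.05 ± 0.16 (adjusted p = 0.891).

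Tfrc in HSC at day 28 stood at 245, 391, 289.9 and 250.0 CPM in PBS mice and at 230.2, 229, 294 and 219 CPM in β-glucan mice, and Slc40a1 at 344, 619, 319 and 399.8 CPM and at 322, 367, 319 and 351 CPM. PBS library 2 was the highest for both genes, and it also had the highest summed macrophage markers (652 CPM, against 437 CPM in the lowest library of its group) and the highest red cell precursor sum (215618 CPM, against 189819 CPM in the lowest). With all libraries the log2 fold changes were -0.29 ± 0.15 for Tfrc (adjusted p = 0.353) and -0.32 ± 0.18 for Slc40a1 (adjusted p = 0.377); without that library they were -0.12 ± 0.11 and -0.07 ± 0.09. Slc11a1 was 33.7 to 42.7 CPM in β-glucan and 38.1 to 47.0 CPM in PBS mice (-0.23 ± 0.10, adjusted p = 0.272).

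In MPP the 9 differences between β-glucan and PBS lay between -0.20 and 0.09 on the log2 scale. Slc40a1 stood at 224, 252, 262 and 246 CPM in PBS mice and at 239, 226, 216 and 186 CPM in β-glucan mice, with overlapping groups (-0.19 ± 0.07, adjusted p = 0.149). Slc25a37 was 251 to 316 CPM against 235 to 299 CPM (-0.09 ± 0.09) and Tfrc 173 to 213 CPM against 154 to 199 CPM (-0.07 ± 0.08). Of the other iron genes in MPP, 1 of 13 transport genes rose and 2 fell, and 1 of 10 heme and 1 of 15 iron-sulfur genes rose. Of 10 regulators and 9 NRF2 targets 0 were called, and of all genes 4.63% were. Snx3, a sorting protein that recycles the transferrin receptor, rose (0.36 ± 0.07, adjusted p = 0.0159). So did the heme transporter Slc48a1 (0.28 ± 0.05, adjusted p = 0.0153), while Ltf (-0.41 ± 0.08) and Steap4 (-0.42 ± 0.10) fell. In the same comparison 8 of 14 neutrophil markers fell, among which Ltf is counted. In HSC at day 28, 0 genes of the 5 other iron lists were called by edgeR; at an unadjusted p under 0.05 there were 2 of 10 regulators, 8 of 14 transport, 0 of 10 heme, 5 of 15 iron-sulfur and 1 of 9 NRF2 genes, and DESeq2 called 1 regulator and 1 transport gene.

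**Figure D3:**
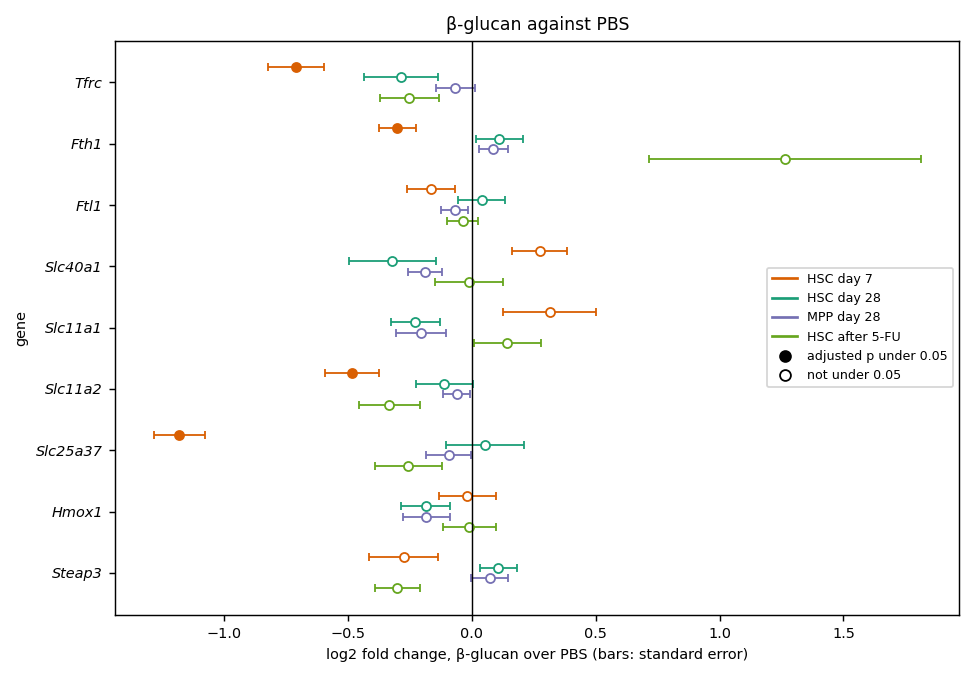
Log2 fold change of β-glucan over PBS (x axis) for the 9 genes (y axis) in HSC at day 7, HSC at day 28, MPP at day 28 and HSC after 5-FU; bars are standard errors, and filled points have an adjusted p under 0.05. Filled points are those of Tfrc, Fth1, Slc11a2 and Slc25a37 at day 7, and the widest bar is Fth1 after 5-FU (1.26 ± 0.55).

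After 5-FU, 0 of the 9 genes were called by edgeR (0.0446% of all genes were), with 3 at an unadjusted p under 0.05 (Fth1, Slc11a2 and Steap3; 7.54% of all genes) and 0 by DESeq2. Steap3 stood at 31.4, 27.2, 26.4 and 32.1 CPM in PBS mice and at 25.6, 21.5, 23.3 and 24.5 CPM in β-glucan mice. Its groups did not overlap, nor did those of Slc11a2 (23.4 to 30.3 CPM and 15.8 to 21.9 CPM); 2.21% of all genes had all β-glucan libraries below all PBS libraries. The log2 fold changes were -0.30 ± 0.09 (adjusted p = 0.371) and -0.33 ± 0.12 (adjusted p = 0.504). Slc25a37 ranged from 107 to 178 CPM in β-glucan and from 146 to 188 CPM in PBS mice (-0.26 ± 0.14, adjusted p = 0.728), and Tfrc from 93.2 to 126 CPM and from 104 to 146 CPM (-0.25 ± 0.12, adjusted p = 0.677). The red cell precursor markers had 0 of 20 called by edgeR in this set, 15 at an unadjusted p under 0.05 and 6 called by DESeq2, with a median of -0.35 and sums of 93191 to 124300 CPM in β-glucan and 136572 to 162200 CPM in PBS mice; their part was not tested.

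Fth1 after 5-FU stood at 140.0, 233, 250.3 and 215 CPM in PBS mice and at 283, 149.6, 243 and 1336 CPM in β-glucan mice. Library 4 of the β-glucan group lay 5.74-fold above the median of the other 7 libraries, which ranged from 140.0 to 283 CPM. With it the log2 fold change was 1.26 ± 0.55 (adjusted p = 0.634), and without it 0.10 ± 0.22. The same library also stood over 3-fold above the median of the other 7 for H2-D1 and Mpc2. No further gene did so among 5043 genes with a median of at least 20 CPM in those 7 libraries. The level of Fth1 in this table was 13.003-fold below its median in the day 28 table, the largest such ratio among 390 genes of at least 300 CPM, of which 9 were over 5-fold lower (Bsg, Car1, Fth1, Gm12918, H2-D1, Mcm6, Pdia3, Pfn1 and Rpl13-ps6). The 2 sets are separate tables, so table and 5-FU treatment cannot be told apart.

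The β-glucan effect on Slc25a37 differed between the sets, which are also separate tables. Day 28 minus day 7 gave a difference of 1.21 ± 0.21 on the log2 scale in HSC (edgeR, adjusted p = 0.00305; 1 of 9 genes called, against 4.82% of all genes in either direction and 2.24% higher), and 5-FU minus day 7 gave 0.89 ± 0.19 (adjusted p = 0.0215; 1 of 9, against 2.18% and 0.945%). The second difference was not called without β-glucan library 2 or 3 of day 7 (adjusted p = 0.0785 and 0.0594). For Tfrc these differences were 0.40 ± 0.21 (adjusted p = 0.315) and 0.43 ± 0.18 (adjusted p = 0.25), so that a change of its effect over time was not shown. The same differences were higher for 18 and 12 of 20 red cell precursor markers (medians 1.12 and 0.88) and for 8 and 8 of 9 B cell markers (medians 1.14 and 1.35). They were lower for 9 and 8 of 14 neutrophil markers (medians -1.05 and -0.78) and for 4 and 3 of 9 monocyte markers (medians -0.56 and -0.36). The part of these cells' transcripts in the values of Slc25a37 was not tested. Between MPP and HSC at day 28, and between 5-FU and day 28, 0 of 9 effects differed by edgeR (0.00599% and 0.106% of all genes; 0 and 1 of 9 at an unadjusted p under 0.05, against 6.19% and 11.3% of all genes; 0 by DESeq2).

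Transcripts of ferroportin, the transferrin receptor, the endosomal iron transporter and the endosomal reductase were lower in MPP than in HSC at day 28 in both treatments. In PBS mice 4 of 9 genes were lower in MPP (Slc40a1, Tfrc, Slc11a2 and Steap3) and 0 higher, where 21.7% of all genes were called and 12.1% were lower. In β-glucan mice 6 of 9 were lower (these 4, Slc25a37 and Ftl1) and 0 higher, where 35.6% were called and 18% were lower. The median over the 9 genes was -0.23 in PBS and -0.28 in β-glucan mice, against -0.02 and -0.01 over all genes tested.

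Slc40a1 had the largest difference in both. In PBS mice its MPP libraries stood at 224 to 262 CPM and its HSC libraries at 319 to 619 CPM, and in β-glucan mice at 186 to 239 CPM and 319 to 367 CPM. No MPP library reached an HSC library, as for 13.2% of all genes in PBS and 16.9% in β-glucan mice. The log2 fold changes were -0.78 ± 0.17 (adjusted p = 0.00841) and -0.65 ± 0.08 (adjusted p = 0.000166), and the first was -0.53 ± 0.07 (adjusted p = 0.000393) without PBS HSC library 2.

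Tfrc stood at 173, 198, 213 and 184 CPM in MPP of PBS mice and at 192, 191, 199 and 154 CPM in MPP of β-glucan mice, again below every HSC library of the same treatment. Its log2 fold changes were -0.63 ± 0.14 (adjusted p = 0.00766) and -0.40 ± 0.10 (adjusted p = 0.0104). Slc25a37 was lower in MPP of β-glucan mice (235 to 299 CPM against 325 to 481 CPM; -0.55 ± 0.12, adjusted p = 0.00403), and in PBS mice, with ranges that overlapped, it did not pass edgeR's test (-0.41 ± 0.14, adjusted p = 0.0543). It passed there in 6 of 13 alternatives, among them DESeq2 (adjusted p = 0.0246), no filter (adjusted p = 0.0187) and the replicate block (adjusted p = 0.00964).

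Slc11a2 was 55.6 to 63.0 CPM in MPP and 65.8 to 96.5 CPM in HSC of PBS mice (-0.37 ± 0.11, adjusted p = 0.0372), and the difference in β-glucan mice was -0.31 ± 0.06 (adjusted p = 0.00224). Steap3 differed by -0.23 ± 0.08 (adjusted p = 0.0482) and -0.26 ± 0.07 (adjusted p = 0.0178). In PBS mice both of these calls were lost without any 1 of the 4 MPP libraries or without HSC library 4 (adjusted p = 0.0576 to 0.154), and that of Steap3 was lost in 9 of 13 alternatives, also without HSC library 3 (adjusted p = 0.0629), without the filter (adjusted p = 0.0924), with DESeq2 size factors (adjusted p = 0.0589) and with the replicate block (adjusted p = 0.0561). Ftl1 was lower in MPP of β-glucan mice (-0.28 ± 0.07, adjusted p = 0.00961), while Fth1, Hmox1 and Slc11a1 did not pass edgeR's test in either treatment (-0.19 to 0.02 on the log2 scale). DESeq2 called Hmox1 in PBS mice (adjusted p = 0.0423) and Fth1 in β-glucan mice (adjusted p = 0.0451).

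Markers of other cells also differed, in both directions. Of 20 red cell precursor markers, 15 were lower in MPP of PBS mice and 18 in MPP of β-glucan mice (medians -0.49 and -0.46), with sums of 152065 to 189982 CPM in MPP and 189819 to 215618 CPM in HSC of PBS mice. Of 14 macrophage markers, 7 were lower in each treatment, with sums of 365 to 408 CPM in MPP and 437 to 652 CPM in HSC of PBS mice. All 8 megakaryocyte markers were lower too. Of 14 neutrophil markers 3 were lower in PBS and 8 in β-glucan mice, with 0 higher in either. Of the HSC markers tested, 6 of 11 were lower and 1 higher in PBS mice. In β-glucan mice 7 of 12 HSC markers were lower and 2 higher. Of 9 B cell markers 3 were higher in MPP and 0 lower in PBS mice (sums 3362 to 3950 CPM in MPP and 1524 to 2189 CPM in HSC), and of 9 monocyte markers 3 were higher and 1 lower. Their part in the differences of the iron genes was not tested.

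**Figure D4:**
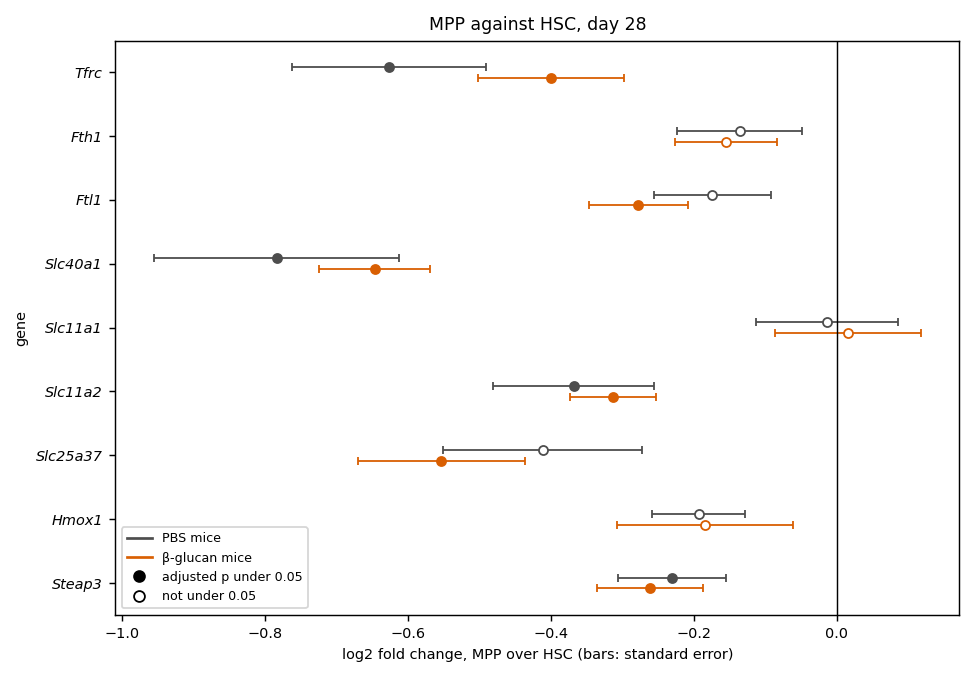
Log2 fold change of MPP over HSC at day 28 (x axis) for the 9 genes (y axis) in PBS (grey) and β-glucan mice (orange); bars are standard errors, and filled points have an adjusted p under 0.05. Slc40a1 lies farthest to the left in both (-0.78 and -0.65), and Slc11a1 lies near 0.

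In PBS mice most other iron genes did not pass the test between MPP and HSC. In β-glucan mice 5 of 10 regulators, 7 of 14 transport and 5 of 10 heme genes were called. So were 7 of 15 iron-sulfur and 4 of 9 NRF2 genes. In each list and treatment more genes were called lower in MPP than higher. The calls are to be read against the shares of all genes given above. Of the heme handling genes in PBS mice, 3 of 10 were lower, among them the heme transporter Slc48a1 (-0.69 ± 0.07, adjusted p = 9.74e-05), and 1 was higher, Hmox2, the constitutive heme oxygenase (0.38 ± 0.07, adjusted p = 0.00229). Of 15 iron-sulfur genes 4 were lower and 2 higher, of 13 transport genes 3 were lower, including Tfr2, the second transferrin receptor (-0.38 ± 0.08), and of 10 regulators 2 were lower, Fbxl5, which marks an iron regulatory protein for decay (-0.50 ± 0.13), and Epas1 (-1.52 ± 0.24). Of 9 NRF2 targets 3 were lower, among them Gclm (-0.68 ± 0.11), and 1 higher, Prdx1 (0.21 ± 0.07). In β-glucan mice the counts lower and higher were 4 and 1 of 10 heme genes, 6 and 1 of 15 iron-sulfur genes, 5 and 2 of 14 transport genes, 4 and 1 of 10 regulators, and 3 and 1 of 9 NRF2 targets. Abcb10 was lower in both (-0.57 ± 0.14 and -0.92 ± 0.10).

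Ferritin reads are shared with near-identical copies, and the tables differed in the level of these copies. The pseudogene Ftl2-ps held 0.25 to 0.65 CPM in the day 7 table and 1177 to 1942 CPM in the other tables, there above Ftl1 itself (588 to 853 CPM). A copy of part of Slc25a37, Gm16867, was at 0 in all 7 libraries of day 7 and at 5.75 to 25.8 CPM elsewhere. Levels of ferritin and Slc25a37 in different tables may therefore not be on 1 scale. The low Fth1 level of the 5-FU table is to be read with the same caution, but its copy Gm6977 was low there too. In HSC of PBS mice Gm6977 stood at 3.33 CPM after 5-FU and at 63.9 CPM at day 28. Fth1 and Gm6977 summed stood at 213 and 3195 CPM. The cause was not tested. Within tables the sum of Ftl1 and its 6 copies gave log2 ratios of group means close to those of Ftl1 alone: -0.15 against -0.16 at day 7, and -0.27 against -0.28 for MPP over HSC in β-glucan mice. At day 7 the sum of Slc25a37 and Gm16867 (-1.18) was Slc25a37 alone, since the copy held 0 counts there, so it checks nothing. Gm6977 held a mean of 39.6 CPM in PBS mice at day 7, against 3236 CPM for Fth1. The day 7 ratio of their sum (-0.30) could therefore hardly differ from that of Fth1.

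**Figure D5:**
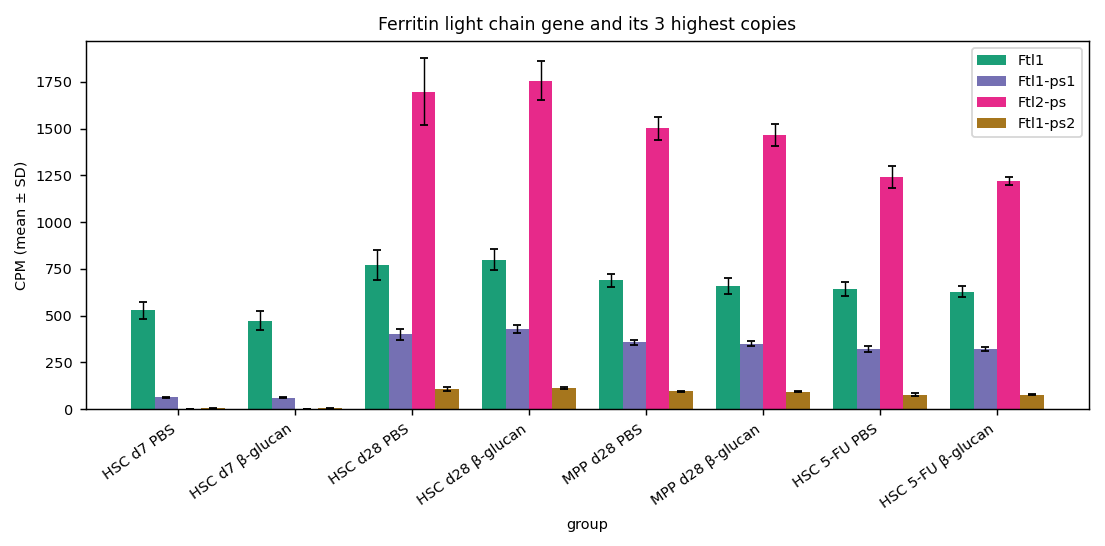
Mean CPM with SD (y axis, from 0) of Ftl1 and its 3 most abundant copies in the 8 groups (x axis). Ftl2-ps is absent to the eye at day 7 (at most 0.65 CPM) and the tallest bar in the other 6 groups.

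The genes whose pattern was most like each member were ranked by Pearson's r of log2 CPM over the 31 libraries after removal of each table's mean, among 11711 genes; the libraries share tables and marker levels, so r is given as a description. Tfrc was nearest to Nt5c3 (0.95), Epb42 (0.94) and Trak2 (0.94), of which Epb42 is a red cell membrane gene and belongs to the marker list above. Slc25a37 was nearest to March2, Ranbp10 and Evi5 (0.93, 0.93 and 0.92), and Slc40a1 to Slc2a3, Ripor2 and Rab5b (0.95, 0.93 and 0.91). Slc11a2 was nearest to Ctse (0.89), Steap3 to Gfi1b (0.84), Hmox1 to Klhl28 (0.84), Slc11a1 to Cytip (0.84) and Ftl1 to Ccdc189 (0.82). For Fth1 the nearest was Psmd5, with 0.94 over all libraries and 0.75 without the 2 libraries farthest from the median, both of the 5-FU set.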

How the data were processed

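Whole-number counts per gene were used as the authors deposited them, in 3 tables of 7, 16 and 8 libraries. Per the submitters' processing notes, bcl2fastq 1.8.4, featureCounts and mm10 were used. An aligner was not given in the sources used here. Per the labels' protocols RNA was amplified with a SMARTer kit, which does not mark strand, so overlapping and antisense genes cannot be told apart. Table columns give neither day nor 5-FU: the table of 7 was taken as day 7 (the set with 3 β-glucan and 4 PBS libraries), that with MPP as day 28 and the last as 5-FU, with P and G read as PBS and β-glucan. The title was followed for the MPP library with an HSC tag. Gene symbols came from GENCODE M21 (45143 of 45706 identifiers; the 563 others held at most 0.0908% of a library's counts). None of 45 replicate pairs was a duplicate (chi-square per gene 6.75 to 50.3).

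In R 4.3.3, genes were kept by filterByExpr (minimum count 10), scaled by TMM and tested with edgeR 4.0.16 in a fit of the compared groups only, adjusted over all genes tested. SE is the absolute log2 fold change divided by the square root of F. Alternatives were DESeq2 1.42.0 size factors and Wald test, no filter, a replicate block, all day 28 groups in 1 fit, and each library left out. The procedure was tested on simulated data. Same-numbered MPP and HSC libraries of β-glucan mice deviated together (r of deviations from group means 0.153 to 0.276 in all 4 pairs). They count as paired by that check alone (every pair over 0.1). The fold changes and p-values given for them are still from the fit without a replicate block. With that block 6 of the 9 genes were called as well. The other comparisons each had pairs under 0.1 and count as unpaired by the same cut. The range was 0.058 to 0.140 for MPP against HSC of PBS mice and -0.065 to 0.215 for HSC at day 28. In the first of these all 4 values were positive, against means of -0.063 to -0.007 with other-numbered libraries. The 9 genes, the other lists and the tests were chosen with earlier results of these data known. Named genes are the 9 members, up to 4 called genes of smallest p per iron list and comparison, and the 3 genes most like each member; Gm16867, the ferritin copies and the genes that stood apart after 5-FU were named after their values were seen.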

Additional observations from a re-analysis of the deposited data

Results flagged for a closer look

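In groups of 4 libraries, a library was set apart when its gap to the nearest one exceeded Dixon's critical share of the group's range, which chance gives in about 1 in 20 groups; 7 of 63 checks were. Tfrc in HSC of β-glucan mice at day 28 was high in library 3 (294 CPM, next 230.2 CPM). Fth1 after 5-FU was high in β-glucan library 4 (1336 CPM, next 283 CPM). Slc11a1 was low in PBS HSC library 4 at day 28 (38.1 CPM, next 45.5 CPM) and in β-glucan library 4 after 5-FU (30.7 CPM, next 36.5 CPM). Slc11a2 after 5-FU was high in PBS library 2 (30.3 CPM, next 24.4 CPM) and low in β-glucan library 2 (15.8 CPM, next 21.4 CPM). Hmox1 at day 7 was low in PBS library 4 (91.3 CPM, next 124 CPM).

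The β-glucan effect on Slc25a37 differed between day 28 and day 7 by 1.21 on the log2 scale, and between the 5-FU set and day 7 by 0.89, each by edgeR's test of the difference itself.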

How the results depend on the processing

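Of 1359 values of single iron genes under alternatives, 1312 stayed on their side of the threshold, 29 lost a call, 18 gained one and 0 reversed a called direction; small differences that were not called could change sign (Slc25a37 in HSC at day 28, -0.10 to 0.23). Tfrc and Slc25a37 at day 7 kept their calls in all 11 alternatives run. With 1 library left out, 2 to 3 of 9 genes were called in HSC at day 7 (500 to 1252 genes in all), 2 to 6 in MPP against HSC of PBS mice, 1 to 3 for day 28 minus day 7 and 0 to 1 for 5-FU minus day 7. The highest counts of MPP against HSC (6) and of day 28 minus day 7 (3) came without PBS HSC library 2 of day 28. The cause was not tested. For day 28 minus day 7, 2 were called without the filter (Slc40a1 added) and 2 by DESeq2 (Fth1 added). With a replicate block, 1 gene was called in MPP at day 28 (Slc11a1, -0.21, adjusted p = 0.0497) and 3 instead of 4 at day 7. In MPP against HSC of PBS mice it gave 5 instead of 4. There same-numbered libraries had an r of 0.058 to 0.140 and fell short of the cut for pairing. In the paired β-glucan mice the count stayed at 6. Calls over all genes moved more: in HSC at day 28, 6 by edgeR, 531 by DESeq2, 182 without the filter and 690 with all day 28 groups in 1 fit, with 0 of 9 iron genes in each; after 5-FU, 7 by edgeR and 147 by DESeq2. An alternative chosen after seeing the data left out PBS library 2 and β-glucan library 3 of HSC at day 28 and also gave 0 of 9, with 669 genes in all.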
